A study of Mus musculus with 13 samples.

Results

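Arrays of cultured mouse prostate cells, 3 taken 6 h and 3 taken 48 h after vehicle was added, were compared. The aim was to describe how the transcriptome of these cultures moved with time when no vitamin D hormone was added. The 6 arrays were chosen by their titles, which give ethanol as the treatment and the time point, and they are 6 of the 13 arrays in the series. The cells were adult prostatic progenitor/stem cells isolated from 10 wk old wild-type mice (strain written B1/6; 127/SVEV in the labels) and used at passage 22. They were plated in 10 cm dishes, grown to 70% confluency and given medium with 0.1% ethanol, the solvent of the hormone. The 6 h cultures were exposed once, and the 48 h cultures received fresh treated medium every 24 h. The other 7 arrays were 3 at 6 h and 4 at 48 h. Their cultures received 100 nM 1,25-dihydroxyvitamin D3 (1,25D), the active form of vitamin D, in the same solvent. These arrays share the cells, passage and schedule. They serve here as a second time course and also add to the estimate of the spread between arrays. The labels do not say whether the replicates were separate cultures, so p-values measure only the spread between these arrays, which may be technical. Time in culture, the number of medium changes and the day on which an array was processed cannot be told apart. Cells of 1 line at 1 passage cannot stand for the gland.

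Prostate epithelium has a basal layer, which expresses keratins 5 and 14 and the transcription factor p63, and a luminal layer, which expresses keratins 8 and 18 and makes the secretions of the gland. Progenitor cultures commonly carry both sets of keratins. Growth, metabolism and differentiation each have known transcriptional control: E2F and the MuvB complexes control cell cycle genes, Myc controls ribosome production, HIF controls glycolysis and oxygen-sensing genes, and TFEB and its relatives control lysosomes.

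Values are the deposited log2 signals, with 1 probe set for each of 18193 genes, the one with the highest mean over the 13 arrays. A change is the mean at 48 h minus the mean at 6 h on that scale, given with its standard error (SE) from a limma fit to all 13 arrays. A gene was called at a Benjamini-Hochberg adjusted p under 0.05 over all probe sets. Genes written to have risen or fallen were called, ± is the SE with 3 arrays at each time, and 3 values in a row are replicates 1, 2 and 3. Most of the epithelial marker genes named here were bright, and most markers of other cell types were not. Percentiles here are ranks of the vehicle signal among all probe sets that are no controls. Krt14 lay at percentile 99.9, Krt8 at 99.8, Krt18 at 99.7, Krt5 at 99.3 and Epcam, an epithelial adhesion molecule, at 99.0. Pbsn, which encodes the androgen-driven secretory protein probasin, lay at percentile 6.47. Ptprc (leukocytes, 17.9), Pecam1 (endothelium, 35.8), Col1a1 (fibroblasts, 23.9), Myh11 (smooth muscle, 14.6) and Chga (neuroendocrine cells, 28.1), given with their percentiles, were likewise in the lower part of the range. Vim, vimentin, also counted as a stromal marker, went the other way and was bright, above the upper quartile of the vehicle arrays. In a mixed culture, fewer cells of a type and less RNA per cell cannot be told apart.

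A pair of arrays stood apart from the rest. The interquartile range of the log2 signals was 3.034 in vehicle 6 h replicate 1 and 2.949 in 1,25D 48 h replicate 4, against 3.27 to 3.456 in the other 11 arrays, and the second principal component, with 23% of the variance, set the same pair apart. The first component, with 45.4%, separated the 6 h from the 48 h arrays. Of the 18193 genes, 3382 (18.6%) were called between 6 and 48 h in vehicle, 1790 (9.84%) higher and 1592 (8.75%) lower at 48 h. Which direction had more calls depended on vehicle 6 h replicate 1: without it the numbers were 1596 higher and 1909 lower, and without both arrays 1971 and 2376. Among the called genes, 638 (3.51% of all genes) were at least 2-fold higher and 335 (1.84%) at least 2-fold lower. The 3 arrays of one time lay wholly above the 3 of the other in 5648 genes (31.0%), and in 3358 of the 3382 called genes. The median change over all genes was -0.026.

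The leading rises exceeded 3.5 on the log2 scale. Tslp, which encodes an epithelial cytokine that acts on dendritic cells, had log2 signals of 5.12, 4.90 and 4.61 at 6 h and 9.87, 10.04 and 9.79 at 48 h. Every 48 h array was far above every 6 h array, and the change was 5.03 ± 0.15 (SE), adjusted p = 3.04e-10, a 32.5-fold rise. Sftpd, the collectin surfactant protein D, an innate defence protein of mucosal surfaces, read 7.40, 7.42 and 7.74 at 6 h and 12.58, 12.48 and 12.27 at 48 h. It ended among the brightest genes of the cultures, 30.4-fold higher (4.92 ± 0.13 SE, adjusted p = 1.66e-10). Ifit1bl1, a member of the interferon-induced Ifit family, had signals of 4.01, 4.56 and 4.03 at 6 h and 8.84, 8.87 and 8.96 at 48 h, near or below the lower quartile of the array at the first time and 25.8-fold higher at the second, a size that may be understated (4.69 ± 0.22 SE, adjusted p = 1.72e-08). Sprr2d, a small proline-rich protein of the cornified envelope, read 5.46, 5.66 and 6.11 at 6 h and 10.23, 10.27 and 10.78 at 48 h and rose by 4.68. Probe sets of the Sprr2 family are close in sequence, so the split of signal between members is uncertain.

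The other leading rises were of similar size. Cyp2f2, a cytochrome P450 best known from club cells of the airway, read 6.23, 6.99 and 6.54 at 6 h and 10.79, 11.03 and 11.07 at 48 h and rose 20.7-fold. Rptn, the cornified-envelope protein repetin, rose by 4.25 ± 0.25 (SE), and Muc15, a membrane mucin, by 4.02 ± 0.35. Hp, the acute-phase haemoglobin-binding protein haptoglobin, read 7.30, 7.10 and 7.35 at 6 h and 11.18, 11.46 and 11.19 at 48 h, a 16.3-fold rise with no overlap. Igfbp5, which binds insulin-like growth factors, rose by 3.77 ± 0.41 although its 6 h arrays spread from 5.47 to 7.23, and Steap4, a metalloreductase, by 3.65 ± 0.32. Kit, the stem cell factor receptor, read 4.78, 5.47 and 5.08 at 6 h and 8.56, 8.68 and 8.86 at 48 h and was 12-fold higher. The 15 largest rises, chosen among called genes with separated arrays, also include Egln3, Aldoc, Bnip3 and Sprr2h, and all 15 were called when any single array was left out. The vehicle 6 h replicate that stood apart was the lowest of the 3 at 6 h for Muc15, Igfbp5, Steap4 and Egln3, and without it the changes of these 4 genes were 3.52, 3.26, 3.20 and 4.13.

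The leading falls, chosen in the same way, were smaller than the leading rises. Ccnb1ip1, an E3 ligase required in meiosis, had log2 signals of 7.67, 8.20 and 8.23 at 6 h and 4.47, 4.63 and 4.55 at 48 h, a fall of 11.2-fold (-3.48 ± 0.24 SE, adjusted p = 4.96e-07). Pcolce2, an enhancer of procollagen processing, read 8.67, 9.17 and 8.89 at 6 h and 5.52, 5.28 and 6.01 at 48 h and was 9.90-fold lower (-3.31 ± 0.22 SE, adjusted p = 4.91e-07). The 48 h signals of Ccnb1ip1 lay near the lower quartile of the array, so its fall may be understated. Snhg3, a host RNA of small nucleolar RNAs, fell by 2.27 ± 0.17, and Trmt61a, a transfer RNA methyltransferase, fell by 2.26 ± 0.23. Cad, which carries the first enzymes of pyrimidine synthesis, read 9.92, 10.46 and 10.62 at 6 h and 8.06, 8.15 and 8.42 at 48 h. Srm, the spermidine synthase, read 11.73, 11.96 and 11.75 at 6 h and 9.52, 9.94 and 10.11 at 48 h. Neither gene had an overlapping array, and the falls were 4.35-fold and 3.87-fold. Dna2, a helicase and nuclease of DNA replication, fell by 2.15 ± 0.22.

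**Figure D1:**
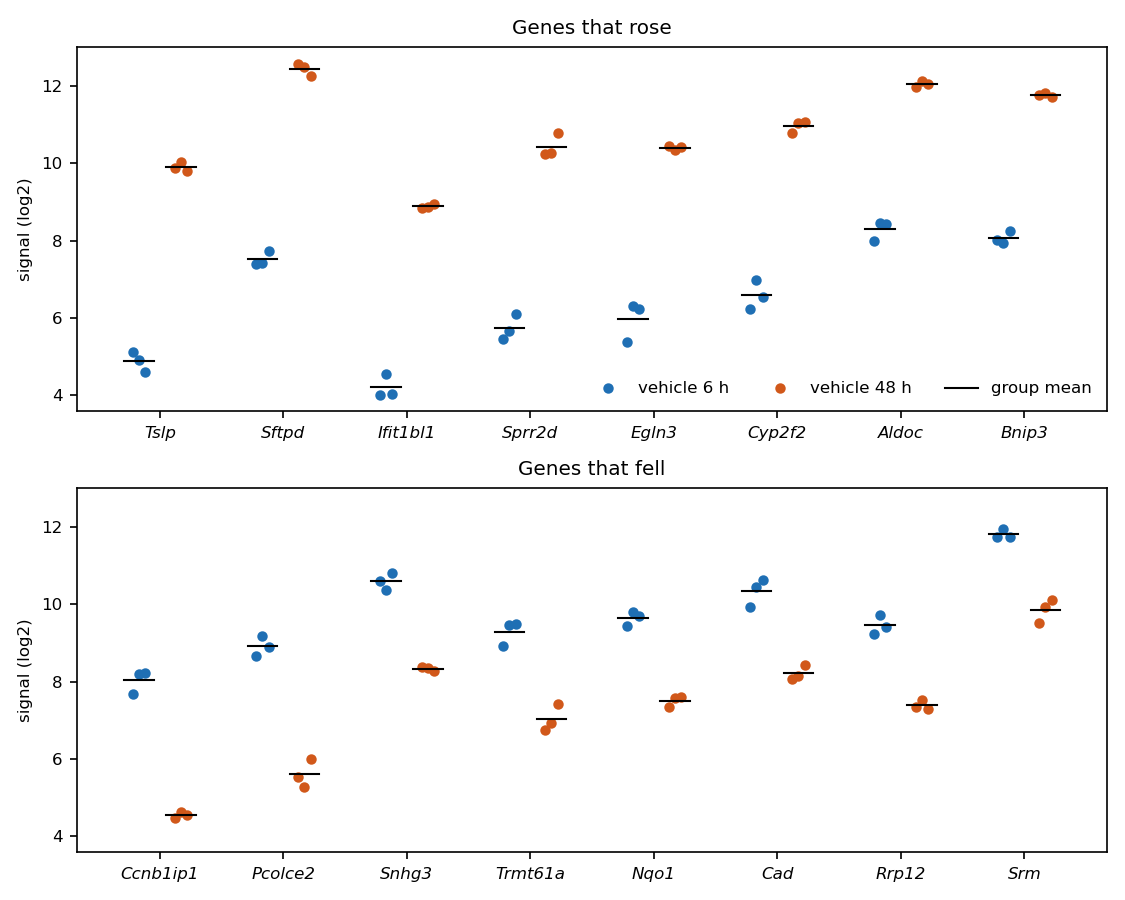
Log2 signal of 8 genes with large rises (top) and 8 with large falls (bottom) in each vehicle array, 3 at 6 h (blue) and 3 at 48 h (orange), with the group mean as a bar. The genes were chosen for separated groups; their changes run from 5.03 for Tslp to -3.48 for Ccnb1ip1.

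The other leading falls were of similar size. Nqo1, a quinone reductase and classic target of the antioxidant regulator Nrf2, read 9.45, 9.81 and 9.69 at 6 h and 7.35, 7.57 and 7.60 at 48 h. Cyp1a1, the aryl hydrocarbon receptor target, read 6.14, 6.99 and 7.45 at 6 h and 4.46, 4.53 and 4.97 at 48 h. Both were lower in every 48 h array, by 4.41-fold and 4.63-fold; the 48 h signals of Cyp1a1 lay near the lower quartile, so its fall may be understated. Abcc4, an efflux pump of cyclic nucleotides and prostaglandins, fell by 2.23 ± 0.22, Prkg2, a cGMP-dependent kinase, fell by 2.15 ± 0.17, and Chst2, a sulfotransferase, fell by 1.99 ± 0.23. Il24, an IL-10 family cytokine, fell by 2.03 ± 0.19. Cdh2, which encodes N-cadherin, had 6 h signals of 6.93, 7.83 and 8.91 and 48 h signals of 6.23, 5.10 and 5.85; it was called (-2.16 ± 0.42 SE, adjusted p = 0.00299) and had the widest spread within a time among the 30 leading genes.

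Hypoxia and glycolysis genes rose as a group. HIF, the oxygen-regulated transcription factor, binds a core of ACGTG; the oxygen-dependent hydroxylases that mark it for destruction are themselves among its targets, as are most enzymes of glycolysis. Of the 37 measured members of this list, 24 were called higher and 2 lower, with a median change of 0.74, against 9.84% higher, 8.75% lower and a median of -0.026 over all genes. Egln3, one of the HIF hydroxylases, read 5.37, 6.31 and 6.22 at 6 h and 10.44, 10.35 and 10.41 at 48 h. Egln1, its housekeeping relative, read 9.05, 9.49 and 9.29 at 6 h and 9.96, 10.0 and 10.09 at 48 h. The first was 21.6-fold and the second 1.67-fold higher, both with separated arrays. Bnip3, which directs mitochondria to autophagy under low oxygen, read 8.02, 7.94 and 8.26 at 6 h and 11.77, 11.82 and 11.72 at 48 h. Its change was 3.70 ± 0.12 (SE), adjusted p = 3.7e-10, or 13-fold, and its arrays varied little within a time. P4ha2, a collagen prolyl hydroxylase, read 5.91, 6.72 and 6.50 at 6 h and 9.24, 9.15 and 9.20 at 48 h (7.05-fold).

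The promoters of 3 members are shown because their genes rose and a script found the letters ACGTGC, a hypoxia element, in them. They are the 250 bases before the RefSeq start (GRCm38.p6), 5′ to 3′ on the strand of the gene, with the match in capitals; one on the other strand reads as its reverse complement. Bnip3 is at chr7:138909507-138909756 (minus strand), P4ha2 at chr11:54100674-54100923 (plus) and Pgk1 at chrX:106186850-106187099 (plus). In Bnip3, matches on both strands overlap each other and the E-box CACGTG.
Bnip3: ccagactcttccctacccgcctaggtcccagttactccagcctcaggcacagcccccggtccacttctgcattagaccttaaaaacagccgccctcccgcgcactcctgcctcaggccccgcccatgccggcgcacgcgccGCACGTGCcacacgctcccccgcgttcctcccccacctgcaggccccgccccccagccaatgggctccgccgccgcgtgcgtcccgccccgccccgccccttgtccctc
P4ha2: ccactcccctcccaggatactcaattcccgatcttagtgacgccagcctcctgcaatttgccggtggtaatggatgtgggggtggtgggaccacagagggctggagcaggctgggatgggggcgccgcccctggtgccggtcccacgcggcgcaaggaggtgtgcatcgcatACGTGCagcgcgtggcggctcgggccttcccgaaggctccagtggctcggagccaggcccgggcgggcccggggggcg
Pgk1: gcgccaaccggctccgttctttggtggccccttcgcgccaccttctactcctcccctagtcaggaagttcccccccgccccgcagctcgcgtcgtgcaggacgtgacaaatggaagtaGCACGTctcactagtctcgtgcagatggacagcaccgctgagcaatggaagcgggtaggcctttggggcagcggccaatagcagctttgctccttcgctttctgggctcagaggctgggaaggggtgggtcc

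In that window the letters ACGTGC occurred on either strand in 15 of 35 hypoxia-list genes with a promoter in the table (42.9%), against 1039 of all 14452 genes (7.19%), 102 of 1425 genes called higher (7.16%) and 127 of 1332 called lower (9.53%). A match describes the letters only and is neither a site nor a cause. Among the enzymes in the order of the pathway, Pfkp, a phosphofructokinase, rose by 0.80 ± 0.17, Aldoa by 0.70 ± 0.08 and Tpi1, triose phosphate isomerase, by 0.75 ± 0.09. Aldoc, the aldolase otherwise best known from brain, read 7.99, 8.46 and 8.43 at 6 h and 11.98, 12.13 and 12.04 at 48 h, a 13.5-fold rise that far exceeded that of Aldoa. Pgk1, which makes ATP in glycolysis, read 13.40, 13.41 and 13.36 at 6 h and 13.74, 13.73 and 13.73 at 48 h. Its rise was 1.27-fold, small beside Bnip3 and yet called (0.34 ± 0.04 SE, adjusted p = 5.82e-05), and its arrays hardly varied within a time. Ldha, lactate dehydrogenase A, rose by 0.45 ± 0.06.

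Pdk1, a kinase that inhibits pyruvate dehydrogenase, read 7.34, 8.06 and 8.0 at 6 h and 10.10, 10.08 and 10.11 at 48 h and was 4.92-fold higher. Car9, a carbonic anhydrase of hypoxic epithelium, rose by 1.70 ± 0.24, Ankrd37, a small HIF target, by 1.65 ± 0.22, and Ndrg1, a stress and differentiation gene, by 2.02 ± 0.11. Vegfa, the vascular growth factor, read 7.60, 8.41 and 8.32 at 6 h and 9.02, 8.92 and 9.29 at 48 h and rose 1.95-fold. The glucose transporter Slc2a1 read 10.38, 10.64 and 10.76 at 6 h and 11.40, 10.77 and 10.85 at 48 h and was not called (0.41 ± 0.19 SE, adjusted p = 0.226). Hif1a itself was not called (0.49 ± 0.15 SE, adjusted p = 0.0548) but was called higher when either 1,25D 6 h replicate 2 or vehicle 6 h replicate 3 was left out. The 2 members called lower were Slc16a1, a lactate transporter (-0.65 ± 0.09 SE, adjusted p = 0.000232), and Hk2, a hexokinase (-0.59 ± 0.16 SE, adjusted p = 0.0214); Hk2 lost its call without vehicle 6 h replicate 2 or 3 or without vehicle 48 h replicate 1 or 2, which leaves 1 call lower.

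Ribosome biogenesis genes fell, and 35 of 43 measured members of this list were called lower, with a median change of -1.02. Ribosomes are assembled in the nucleolus from RNA made by RNA polymerase I, and Myc is a main activator of the genes involved. Rrp12, a ribosome export factor, read 9.22, 9.72 and 9.42 at 6 h and 7.34, 7.52 and 7.30 at 48 h, a 4.19-fold fall with separated arrays. Nop2, an RNA methyltransferase, read 10.51, 10.88 and 10.72 at 6 h and 9.0, 9.14 and 9.13 at 48 h. Nolc1, a nucleolar chaperone, read 10.99, 11.42 and 11 at 6 h and 9.49, 9.59 and 9.53 at 48 h. Both were well separated, at 3.05-fold and 3.03-fold lower. Among the box C/D proteins, Nop56 fell by 1.46 ± 0.12 and Fbl, fibrillarin, fell by 1.01 ± 0.09. Polr1a, the largest subunit of RNA polymerase I, read 9.16, 9.53 and 9.34 at 6 h and 8.22, 8.22 and 8.22 at 48 h and was 2.17-fold lower, and Ncl, nucleolin, one of the brightest members, fell by 0.73 ± 0.06. Odc1, the ornithine decarboxylase that starts polyamine synthesis, read 13.21, 13.23 and 13.44 at 6 h and 12.16, 12.01 and 12.24 at 48 h and fell 2.23-fold.

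Myc itself read 10.59, 10.88 and 10.68 at 6 h and 10.35, 10.39 and 10.47 at 48 h. Its 48 h arrays lay below the 6 h arrays, but the change of -0.32 ± 0.10 (SE), adjusted p = 0.066 was not called. Without vehicle 6 h replicate 1 it was called (adjusted p = 0.0403). The vehicle change of Myc minus its 1,25D change was -0.82, a called difference, so with 1,25D the change was above 0. The 3 members called higher were Mxi1, Mxd4 and Mxd1, which encode partners of Max that oppose Myc at its sites. Mxd4 read 6.55, 6.68 and 7.09 at 6 h and 8.67, 8.61 and 8.96 at 48 h. Mxi1 read 7.97, 8.23 and 8.10 at 6 h and 9.67, 9.76 and 9.83 at 48 h. They were 3.93-fold and 3.14-fold higher, with all 48 h arrays above all 6 h arrays. Mxd1 rose less (1.06 ± 0.27 SE, adjusted p = 0.0185), and its call was lost without vehicle 6 h replicate 1 or vehicle 48 h replicate 1 or 3. The structural ribosomal proteins gave 2 lower and 0 higher of 24 (Rpl12 and Rpl14), with a median of -0.03; without vehicle 6 h replicate 3 there were 5 calls lower. The E-box CACGTG, the preferred site of Myc, occurred in the promoter window of 6 of 36 members (16.7%) and of 8.73% of all genes. It was in 11.5% of genes called lower and 10.1% of genes called higher. Across the other lists the share ran from 0.00% (basal genes among them) to 35.5% (lysosome), with 23.3% in the cholesterol and fatty acid list.

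**Figure D2:**
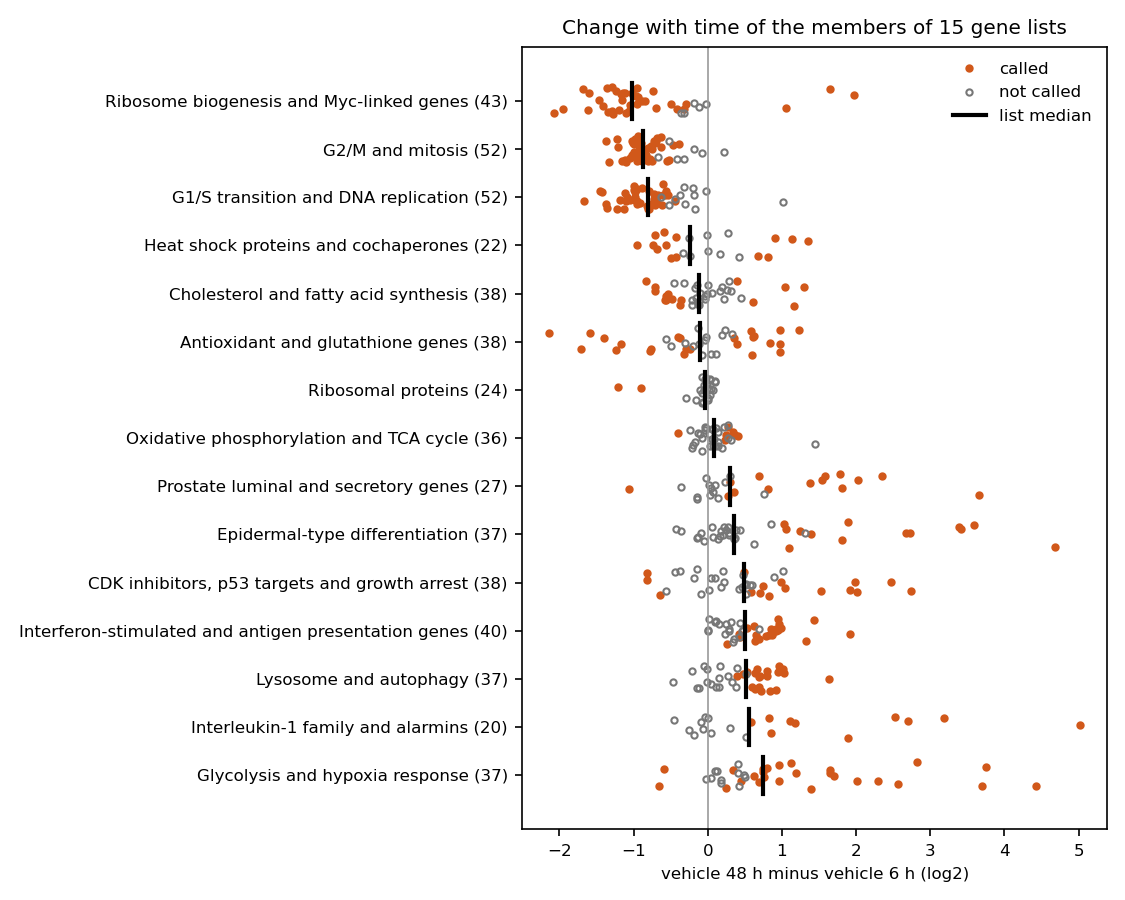
Change from 6 to 48 h in vehicle for each measured member of 15 gene lists (number measured in parentheses), with called genes filled, others open and the list median as a black bar. Medians run from -1.02 for ribosome biogenesis to 0.74 for glycolysis and hypoxia, and the 2 cell cycle lists lie almost wholly below 0.

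DNA replication genes fell. The G1/S list, which holds cyclins E and their kinase, the origin-licensing proteins, the Mcm helicase and the enzymes that make deoxynucleotides, had 41 of 52 measured members called lower and 0 higher, with a median change of -0.80. Among the 11 members not called, 10 had a change below 0, and Rb1, the retinoblastoma protein that restrains E2F, had one of 1.01 ± 0.37; it was called higher without 1,25D 48 h replicate 4. Rrm2, the regulated subunit of ribonucleotide reductase, read 12.41, 12.13 and 12.37 at 6 h and 11.19, 11.13 and 11.02 at 48 h. Its fall was 2.27-fold (-1.19 ± 0.09 SE, adjusted p = 2.07e-06), with a narrow spread at both times. Cdc6, which loads the helicase at origins, read 8.86, 9.13 and 9.21 at 6 h and 7.89, 7.51 and 7.69 at 48 h, and Orc6, a subunit of the origin recognition complex, fell by 1.00 ± 0.11. Among the helicase subunits, Mcm7 read 12.49, 12.74 and 12.84 at 6 h and 11.95, 11.87 and 11.86 at 48 h. Mcm5 read 11.40, 11.33 and 11.50 at 6 h and 10.51, 10.14 and 10.18 at 48 h. The falls were 1.73-fold and 2.19-fold, with separated arrays.

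Cdc7, the kinase that fires origins, read 7.87, 8.39 and 8.38 at 6 h and 6.72, 6.50 and 6.41 at 48 h and was 3.19-fold lower, the largest fall of this list. Rfc5, a subunit of the loader of the sliding clamp, fell by 0.99 ± 0.11, and Pcna, the clamp itself, fell by 0.44 ± 0.09 from a bright level. Cdk6, a G1 kinase, fell by 0.81 ± 0.18. Ccnd1, cyclin D1, its partner, read 12.52, 12.52 and 12.59 at 6 h and 12.15, 12.48 and 12.50 at 48 h. The 48 h arrays lay just below the 6 h arrays, and the change of -0.17 ± 0.09 (SE), adjusted p = 0.309 was not called. The E2F consensus TTTNGCGC was in the promoter window of 8 of 43 members (18.6%) and of 1.94% of all genes.

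Mitotic genes fell too: 45 of 52 measured members of the G2/M list were called lower and 0 higher, with a median change of -0.87. Ccna2, cyclin A2, read 11.85, 12.01 and 11.63 at 6 h and 10.68, 10.62 and 10.55 at 48 h, a 2.32-fold fall (-1.21 ± 0.09 SE, adjusted p = 1.57e-06). Aurka, a kinase of the spindle poles, read 10.77, 10.83 and 10.62 at 6 h and 9.52, 9.68 and 9.56 at 48 h. Plk1, another, read 10.37, 10.64 and 10.52 at 6 h and 9.16, 9.42 and 9.29 at 48 h. They fell 2.22-fold and 2.33-fold, with every 48 h array below every 6 h array. Cdc20, which activates the anaphase-promoting complex, fell by 0.93 ± 0.10, Ccnf, cyclin F, fell by 1.37 ± 0.15, and Espl1, separase, fell by 1.33 ± 0.17. Foxm1, the transcription factor of this programme, fell by 0.84 ± 0.16, and Cdk1, the mitotic kinase, fell by 0.84 ± 0.11. Mki67, the proliferation marker, read 11.42, 11.93 and 11.55 at 6 h and 11.16, 10.87 and 10.82 at 48 h. It was called lower (-0.69 ± 0.16 SE, adjusted p = 0.0127), and that call was lost without vehicle 6 h replicate 2 or without vehicle 48 h replicate 2 or 3.

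The promoters of 3 members are shown because they hold the cell cycle homology region TTTGAA, which MuvB complexes bind, often near CCAAT boxes. The windows are as above, with TTTGAA on the gene's strand in capitals: Cdc20 at chr4:118437344-118437593 (minus strand), Ccnf at chr17:24251410-24251659 (minus) and Espl1 at chr15:102296043-102296292 (plus).
Cdc20: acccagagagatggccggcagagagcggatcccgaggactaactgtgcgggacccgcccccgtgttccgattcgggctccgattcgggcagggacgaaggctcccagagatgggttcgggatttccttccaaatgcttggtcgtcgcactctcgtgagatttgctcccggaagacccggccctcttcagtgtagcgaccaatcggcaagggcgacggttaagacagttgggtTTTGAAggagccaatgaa
Ccnf: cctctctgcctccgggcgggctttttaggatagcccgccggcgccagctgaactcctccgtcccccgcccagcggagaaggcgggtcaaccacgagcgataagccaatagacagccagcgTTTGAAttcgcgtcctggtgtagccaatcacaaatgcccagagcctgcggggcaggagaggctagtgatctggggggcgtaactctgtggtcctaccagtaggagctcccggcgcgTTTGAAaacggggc
Espl1: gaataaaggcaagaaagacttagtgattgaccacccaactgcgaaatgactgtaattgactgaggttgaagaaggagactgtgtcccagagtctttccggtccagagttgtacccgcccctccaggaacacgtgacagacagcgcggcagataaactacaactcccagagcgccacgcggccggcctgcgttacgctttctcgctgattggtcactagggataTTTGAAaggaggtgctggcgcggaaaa

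On either strand, TTTGAA occurred in 17 of 43 G2/M members with a promoter (39.5%), in 14.0% of the G1/S members, in 16.1% of all genes called lower and in 14.1% of all genes. CCAAT occurred in 33 of the 43 (76.7%), against 39.4% of all genes. The 2 motifs share no letters that force an overlap.

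**Figure D3:**
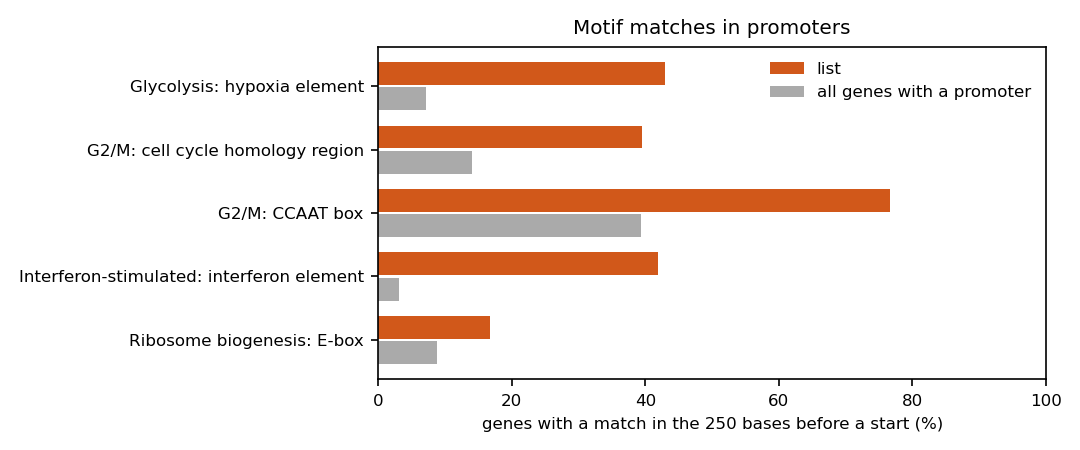
Share of genes with at least 1 match of a motif, on either strand, in the 250 bases before a RefSeq start, for list members (orange) and for all 14452 genes with a promoter in the table (grey). The hypoxia element is in 42.9% of hypoxia-list genes and 7.19% of all genes, and the interferon element in 41.9% and 3.13%.

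Genes of growth arrest moved mainly up, with 13 of 38 called higher and 3 lower and a median change of 0.49. Ccng2, an unconventional cyclin of quiescent cells, read 5.70, 6.20 and 6.63 at 6 h and 9.11, 8.84 and 8.82 at 48 h, a 6.71-fold rise. Cdkn2b, the p15 inhibitor of Cdk4 and Cdk6, read 8.21, 7.87 and 7.91 at 6 h and 9.38, 9.71 and 9.49 at 48 h and rose 2.88-fold, with separated arrays. Pdcd4, an inhibitor of translation, rose by 2.48 ± 0.28, Gas1, a growth-arrest membrane protein, by 1.99 ± 0.26, and Trp53inp1, a p53 target, by 1.92 ± 0.28. Cdkn1a, the p21 inhibitor and best known p53 target, read 9.65, 9.96 and 9.87 at 6 h and 10.02, 10.01 and 10.10 at 48 h (0.21 ± 0.11 SE, adjusted p = 0.328), and Cdkn1b, the p27 inhibitor, read 8.87, 8.42 and 9.02 at 6 h and 9.18, 9.53 and 9.40 at 48 h (0.60 ± 0.24 SE, adjusted p = 0.149); neither was called, but Cdkn1b was called higher without 1,25D 6 h replicate 3. Plk2, a stress-induced kinase, fell by 0.81 ± 0.10.

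Antioxidant and glutathione genes were divided. The list had 11 of 38 called higher and 13 lower, with a median of -0.10. Gclc, the catalytic subunit of glutamate-cysteine ligase, read 11.54, 10.92 and 11.73 at 6 h and 9.86, 9.68 and 9.51 at 48 h. Its partner Gclm read 10.55, 10.72 and 10.75 at 6 h and 9.19, 9.53 and 9.57 at 48 h. They fell 3.27-fold and 2.36-fold. Txnrd1, thioredoxin reductase, read 11.54, 12.07 and 11.86 at 6 h and 10.37, 10.37 and 10.54 at 48 h, and Srxn1, sulfiredoxin, fell by 1.59 ± 0.13. Slc7a11, the cystine importer, fell by 1.17 ± 0.19, and Pgd, an NADPH-making enzyme of the pentose phosphate pathway, fell by 0.78 ± 0.08. Gsto1, a glutathione transferase, read 12.01, 12.13 and 11.90 at 6 h and 12.88, 12.96 and 13.12 at 48 h, Gstm1, another, rose by 0.98 ± 0.13 and Mt1, a metallothionein, by 0.84 ± 0.09. Gstm probe sets are close in sequence, so their split is uncertain, and with ambiguous probe sets left out 8 members were called lower.

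Chaperones were likewise divided. Of 22 heat shock genes, 9 were called lower and 5 higher, with a median of -0.24. Hspd1, the mitochondrial chaperonin, read 13.07, 13.12 and 13.12 at 6 h and 12.29, 12.44 and 12.36 at 48 h, and its partner Hspe1 fell by 0.59 ± 0.08. Hsph1, an exchange factor of Hsp70, fell by 0.95 ± 0.09, and Ahsa1, which activates Hsp90, fell by 0.71 ± 0.08. The small heat shock protein Hspb1 went the other way, with 10.78, 11.18 and 10.79 at 6 h and 12.07, 12.32 and 12.42 at 48 h, a 2.56-fold rise. In the Atf4 and unfolded protein response list, 14 of 43 were called higher and 7 lower, with a median of -0.09; without vehicle 48 h replicate 1 there were 4 lower. Nupr1, a stress-induced transcription cofactor, read 9.98, 10.07 and 9.51 at 6 h and 11.98, 12.42 and 12.28 at 48 h (5.18-fold). Ddit4, an inhibitor of mTORC1, rose by 2.56 ± 0.33, Chac1, which breaks down glutathione, by 1.34 ± 0.19, and Asns, asparagine synthetase, by 0.56 ± 0.10. The chaperone Hspa5 read 12.83, 12.64 and 12.96 at 6 h and 12.90, 12.57 and 12.66 at 48 h and was not called (-0.10 ± 0.11 SE, adjusted p = 0.719).

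Lysosomal and autophagy genes rose, with 20 of 37 called higher, 0 lower (1 without vehicle 6 h replicate 1) and a median change of 0.51. Map1lc3a, an Atg8 protein of the autophagosome membrane, read 9.98, 9.79 and 10.45 at 6 h and 11.51, 11.77 and 11.85 at 48 h. Map1lc3b read 11.28, 10.93 and 10.95 at 6 h and 12.07, 12.22 and 11.93 at 48 h. The rises were 3.11-fold and 2.02-fold, and no arrays overlapped. Among the hydrolases, Hexa, a hexosaminidase, rose by 0.92 ± 0.11, Ctsd, cathepsin D, by 0.69 ± 0.08 and Ctsa, a protective protein for other hydrolases, by 0.95 ± 0.12. Lamp2, a protein of the lysosomal membrane, rose by 0.59 ± 0.14. The E-box CACGTG lay in the promoter window of 11 of 31 members (35.5%), against 8.73% of all genes.

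**Figure D4:**
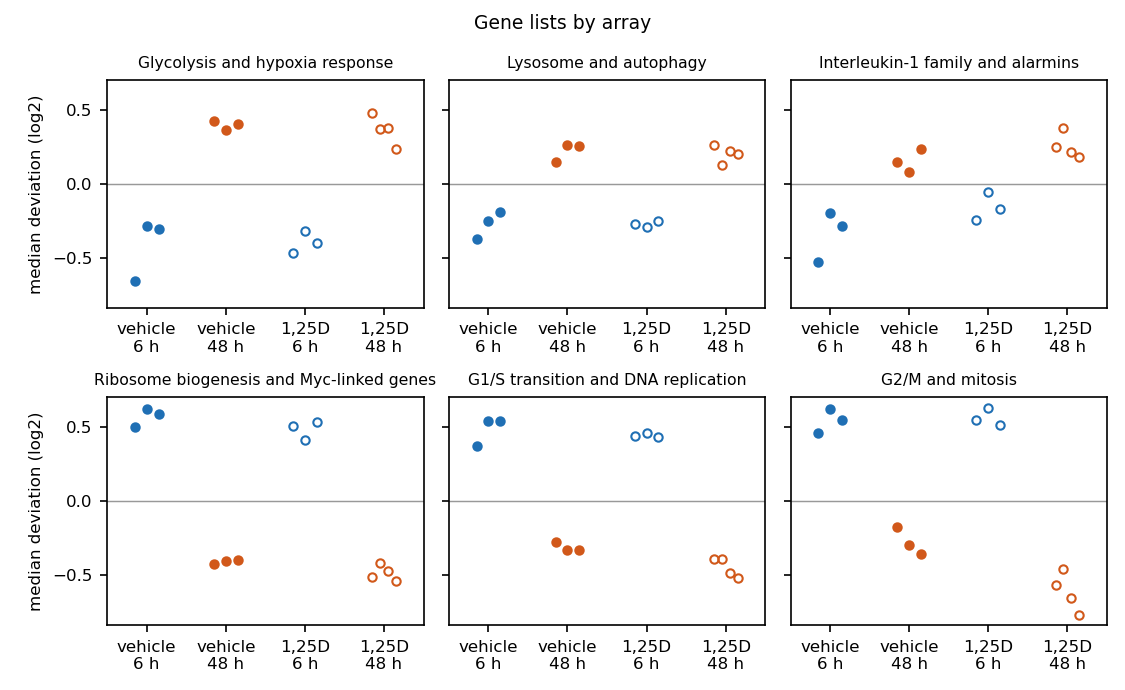
For 6 lists, the median over members of each array's deviation from the gene's mean over the 13 arrays (log2), by group, with vehicle filled and 1,25D open, and 6 h blue and 48 h orange. The vehicle 6 h and 48 h arrays do not overlap in any of the 6 lists; in the hypoxia list the lowest array, at -0.654, is vehicle 6 h replicate 1.

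Calls differed in number between the other metabolic lists, against 9.84% higher and 8.75% lower over all genes. Of 36 genes of oxidative phosphorylation and the citric acid cycle, 6 were called higher and 1 lower, with a median of 0.08; without vehicle 48 h replicate 2 there were 2 higher. Cox4i1, a subunit of cytochrome c oxidase, rose by 0.28 ± 0.05. The cholesterol and fatty acid list had 5 of 38 called higher and 10 lower. The lower count fell to 2 without vehicle 6 h replicate 2, 5 without vehicle 6 h replicate 3, 4 without vehicle 48 h replicate 1 and 3 without vehicle 48 h replicate 2, and the higher count to 3 without vehicle 48 h replicate 1 or 3. Insig2, which holds back the activation of sterol synthesis, was the clearest member, at 8.99, 9.13 and 9.18 at 6 h and 10.42, 10.43 and 10.36 at 48 h (2.47-fold higher), and Fasn, fatty acid synthase, fell by 0.71 ± 0.13. Of 30 nutrient transporters, 7 were called higher and 6 lower; Tfrc, the transferrin receptor, read 11.49, 11.73 and 11.74 at 6 h and 10.59, 10.54 and 10.47 at 48 h, a 2.17-fold fall.

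Interferon-stimulated and antigen presentation genes rose. Of 40 measured members, 22 were called higher and 0 lower, with a median change of 0.50; without vehicle 48 h replicate 3, 14 were called. Interferons induce many of these genes through a promoter element made of GAAA repeats. Ifi35 read 10.12, 10.17 and 10.36 at 6 h and 11.23, 11.14 and 11.14 at 48 h, a 1.94-fold rise, and Ifih1, the cytosolic sensor of double-stranded RNA also called Mda5, read 6.03, 5.87 and 6.03 at 6 h and 8.19, 7.63 and 7.89 at 48 h. All 48 h arrays exceeded all 6 h arrays in both. Xaf1, an inhibitor of apoptosis inhibitors, rose by 1.32 ± 0.17. Ifit1, which binds viral RNA caps, read 4.04, 4.06 and 4.06 at 6 h and 5.04, 5.56 and 5.87 at 48 h, close to the floor of the array at 6 h, so its rise of 1.43 ± 0.21 may be understated. Tapbp, tapasin, which loads peptides on class I molecules, rose by 0.99 ± 0.14, and B2m, the light chain of those molecules, read 11.93, 11.81 and 11.60 at 6 h and 12.29, 12.59 and 12.33 at 48 h. Irf7 (0.29 ± 0.19 SE, adjusted p = 0.456) and Stat2 (0.43 ± 0.22 SE, adjusted p = 0.305) were not called.

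A pair of promoters is shown for the interferon element, GAAA repeated after any 2 bases, found by a script on either strand and printed in capitals on the gene's strand. Ifit1 is at chr19:34640639-34640888 (plus strand) and B2m at chr2:122147437-122147686 (plus).
Ifit1: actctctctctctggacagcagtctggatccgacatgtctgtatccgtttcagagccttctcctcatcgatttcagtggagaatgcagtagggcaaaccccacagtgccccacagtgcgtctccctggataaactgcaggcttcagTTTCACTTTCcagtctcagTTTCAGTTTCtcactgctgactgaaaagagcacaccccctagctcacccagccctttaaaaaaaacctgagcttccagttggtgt
B2m: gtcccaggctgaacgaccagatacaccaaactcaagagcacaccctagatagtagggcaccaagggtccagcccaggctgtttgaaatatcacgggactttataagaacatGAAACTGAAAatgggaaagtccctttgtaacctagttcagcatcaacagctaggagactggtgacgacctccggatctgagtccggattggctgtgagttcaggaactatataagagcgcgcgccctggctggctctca

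The element lay in 13 of 31 members with a promoter (41.9%) and in 453 of all genes (3.13%). Epithelial alarmins, cytokines that cells release or switch on when damaged, were also called higher. In the interleukin-1 family and alarmin list 10 of 20 were called higher and 0 lower, with a median of 0.55. Tslp is described above. Il33 read 5.38, 5.43 and 5.36 at 6 h and 8.65, 8.44 and 8.64 at 48 h. Il18 read 6.23, 6.14 and 6.65 at 6 h and 8.98, 9.17 and 8.97 at 48 h. They were 9.08-fold and 6.53-fold higher, and the Il33 arrays at 6 h were close together. Il1a, the interleukin-1 that basal epithelium stores, rose by 1.18 ± 0.12, and Il1rn, the antagonist of its receptor, by 1.89 ± 0.15, from 7.90, 8.31 and 8.15 to 9.90, 9.97 and 10.17. The calprotectin genes S100a9 and S100a8 rose by 2.53 ± 0.22 and 0.85 ± 0.12.

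Among 39 NF-kB targets, cytokines and chemokines, 14 were called higher and 4 lower, with a median of 0.17. Saa3, an acute-phase protein, read 9.36, 9.52 and 9.56 at 6 h and 12.58, 12.64 and 12.56 at 48 h, an 8.68-fold rise with little spread. Cd14, the lipopolysaccharide co-receptor, rose by 1.13 ± 0.08, and Tnfaip2, a TNF-induced protein, by 1.61 ± 0.16. Csf3, the granulocyte growth factor, went down, from 12.01, 12.10 and 11.94 to 10.87, 11.28 and 11.32, and Ptgs2, the inducible prostaglandin synthase, fell by 1.31 ± 0.18. Lcn2, the iron-binding lipocalin, was already the brightest of those named and rose by 0.41 ± 0.06.

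Of the 4 keratins that define the layers, Krt18 was called and the other 3 were not. Krt14 and Krt8 lay near the highest signal of the arrays (14.4), where a rise may not be measurable. Krt5 read 12.48, 13.05 and 12.85 at 6 h and 12.60, 12.77 and 12.87 at 48 h. Krt14 read 13.93, 13.99 and 14 at 6 h and 13.93, 13.95 and 14.01 at 48 h. Krt8 read 13.67, 13.83 and 13.82 at 6 h and 13.78, 13.69 and 13.81 at 48 h. The groups overlapped in all 3, and the changes of -0.04 ± 0.13, -0.01 ± 0.04 and -0.02 ± 0.05 were not called. Krt18 rose by 0.30 ± 0.04, and Epcam by 0.36 ± 0.08, a call lost without vehicle 48 h replicate 3. Trp63, which encodes p63, the factor that basal cells require, read 7.98, 8.96 and 8.53 at 6 h and 9.80, 9.62 and 9.49 at 48 h and rose 2.21-fold. Krt15, a keratin of basal progenitors, read 6.27, 6.26 and 5.93 at 6 h and 7.70, 7.93 and 7.88 at 48 h, a 3.22-fold rise. The basal list as a whole was evenly split, so the rises of Trp63 and Krt15 do not stand for it. It gave 4 of 24 called higher and 4 lower, with a median change of 0.02. Both counts were 2 without vehicle 48 h replicate 1, and the lower count was 2 without vehicle 6 h replicate 3 and 1 without vehicle 48 h replicate 2.

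Luminal genes had 13 of 27 called higher and 1 lower (the androgen and glucocorticoid target Fkbp5, -1.06 ± 0.15 SE, adjusted p = 0.000278), with a median of 0.30. Krt19, a keratin of luminal and intermediate cells, read 8.84, 9.03 and 8.77 at 6 h and 10.91, 10.98 and 10.81 at 48 h, 4.06-fold higher. Cldn4, a tight junction claudin, read 9.79, 10.11 and 10.08 at 6 h and 11.84, 11.67 and 11.80 at 48 h. Acpp, prostatic acid phosphatase, read 8.16, 8.48 and 8.62 at 6 h and 10.02, 9.97 and 9.90 at 48 h. Both sets were separated. Psca, prostate stem cell antigen, rose by 2.35 ± 0.27, Ehf, an epithelial Ets factor, by 1.58 ± 0.16 and Tmprss2, a membrane serine protease, by 1.37 ± 0.16. Pbsn read 3.80, 3.68 and 3.72 at 6 h and 3.72, 3.76 and 3.80 at 48 h, low and with overlapping groups.

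Epidermal-type genes had 13 of 37 called higher and 0 lower, with a median of 0.36. Krt6b, a keratin of activated and stratified epithelium, read 8.69, 8.85 and 9.06 at 6 h and 12.25, 12.12 and 12.46 at 48 h, a 10.7-fold rise. Sprr1a read 7.29, 7.37 and 7.40 at 6 h and 10.34, 10.79 and 11.08 at 48 h and Krtdap, a keratinocyte differentiation protein, rose by 2.68 ± 0.26. Klk6, a kallikrein protease, read 7.58, 7.56 and 7.60 at 6 h and 9.03, 9.57 and 9.80 at 48 h and rose 3.69-fold. Genes of the cornified layer did not move together. Ivl, involucrin (0.17 ± 0.14 SE, adjusted p = 0.606), Lor, loricrin (0.44 ± 0.37 SE, adjusted p = 0.625), and Flg, filaggrin (0.27 ± 0.18 SE, adjusted p = 0.502), were not called. Rptn and Sprr2d of the cornified envelope, described above, were among the largest rises.

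In the list of epithelial junctions 14 of 37 were called higher and 1 lower, with a median of 0.23; the higher count was 8 without vehicle 6 h replicate 2 and 9 without vehicle 48 h replicate 1 or 3, and the lower count was 2 without vehicle 6 h replicate 1. Tjp3, a tight junction scaffold, rose by 1.19 ± 0.14, and Gjb2, connexin 26, read 10.51, 10.76 and 10.49 at 6 h and 9.23, 9.27 and 9.57 at 48 h, a 2.34-fold fall. Cdh1, E-cadherin, had 48 h arrays above the 6 h arrays by a little (0.19 ± 0.08 SE, adjusted p = 0.197, not called), and the groups of Vim, vimentin, met at 11.09 (-0.39 ± 0.14 SE, adjusted p = 0.0961, not called, though called lower without vehicle 6 h replicate 3). The stem and progenitor list gave 8 of 29 higher and 3 lower; the lower count was 1 without vehicle 6 h replicate 3 or vehicle 48 h replicate 2.

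Matrix and growth factor genes moved member by member, and their counts stand beside 9.84% higher and 8.75% lower over all genes. Of 37 collagen and matrix genes 9 were called higher and 0 lower; 2 were lower without vehicle 6 h replicate 1 and 1 without vehicle 6 h replicate 3. Mgp, matrix Gla protein, an inhibitor of calcification, read 5.21, 5.49 and 5.48 at 6 h and 8.44, 8.68 and 8.50 at 48 h. Prelp, a small leucine-rich proteoglycan, read 5.36, 5.48 and 5.04 at 6 h and 8.34, 8.39 and 8.50 at 48 h. They rose 8.87-fold and 8.65-fold, and Col4a5, a basement membrane collagen chain, by 3.30 ± 0.29. Of 30 matrix proteases and inhibitors 5 were called higher and 6 lower. Mmp3, stromelysin 1, read 6.68, 6.90 and 6.85 at 6 h and 5.19, 5.23 and 5.37 at 48 h, a 2.92-fold fall, and Adam12, a metalloprotease that sheds growth factors, fell by 1.58 ± 0.17. Timp1, a metalloprotease inhibitor, fell by 0.86 ± 0.12, and Itgb8, an integrin that releases TGF-beta, rose by 2.51 ± 0.32. Integrins and laminins gave 5 of 26 higher and 3 lower, but 0 lower without vehicle 6 h replicate 2 or 3 or vehicle 48 h replicate 1, and 1 without vehicle 48 h replicate 2. Mesenchymal genes gave 2 of 25 higher and 2 lower, near the shares of all genes; 4 were lower without vehicle 6 h replicate 1 and 6 without both arrays that stood apart, and 1 was higher without vehicle 6 h replicate 3 or vehicle 48 h replicate 1.

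Ligands of the EGF receptor were the 3 members of the growth factor list called lower. Ereg, epiregulin, read 11.48, 11.65 and 11.70 at 6 h and 9.75, 9.84 and 10.03 at 48 h. Epgn, epigen, read 10.47, 10.50 and 10.35 at 6 h and 8.83, 8.93 and 8.80 at 48 h. They were 3.34-fold and 3.00-fold lower, with separated arrays, and Hbegf fell by 0.84 ± 0.16. Erbb3, a receptor of neuregulins, rose by 1.33 ± 0.17, and Vegfc, the lymphatic growth factor, by 1.53 ± 0.18. The list gave 10 of 43 higher and 3 lower; without vehicle 48 h replicate 1, 6 were higher. In TGF-beta, activin and BMP signalling 8 of 37 were called higher and 1 lower. Inhbb and Inhba, the activin chains, parted: Inhbb read 8.26, 8.81 and 8.77 at 6 h and 9.98, 9.99 and 10.24 at 48 h and rose 2.75-fold, and Inhba read 10.30, 10.68 and 9.95 at 6 h and 9.04, 9.28 and 9.04 at 48 h and was the 1 member called lower (2.28-fold). Without vehicle 6 h replicate 1, 3 members of that list were called lower, and without vehicle 6 h replicate 3, 2 were. Wnt signalling gave 4 of 40 higher (10.0%) and 0 lower. It gave 2 higher without any one of the vehicle 48 h arrays, and 1 lower without vehicle 6 h replicate 1. Notch signalling gave 1 of 23 higher (4.35%) and 2 lower (8.70%). It gave 3 higher without vehicle 6 h replicate 3, and 1 lower without that array or any one vehicle 48 h array. Over all genes 9.84% were called higher and 8.75% lower, so the Wnt and Notch counts were near or below those shares.

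Calls among immediate early genes, 7 of 40 in all, were near the 18.6% of all genes, and 5 of 19 clock genes were called. Of 40 immediate early factors and MAP kinase phosphatases 4 were called higher and 3 lower, with a median of -0.02. Egr1 read 9.04, 9.02 and 9.57 at 6 h and 10.64, 10.70 and 10.75 at 48 h, a 2.81-fold rise, and Fosl1, an AP-1 subunit, read 10.20, 10.22 and 10.16 at 6 h and 8.31, 8.35 and 8.52 at 48 h, a 3.48-fold fall. Fos read 10.07, 9.84 and 9.98 at 6 h and 9.95, 10.06 and 10.09 at 48 h; its groups overlapped (0.08 ± 0.10 SE, adjusted p = 0.803, not called). Of 19 clock genes 5 were called higher and 0 lower, and leaving out a single array left 2 calls (replicate 1 of vehicle at either time) or 3 (vehicle 48 h replicate 3 and, among the 1,25D arrays, 6 h replicate 1 and 48 h replicates 1 and 3). Dbp, an output factor of the clock, read 5.22, 6.04 and 5.99 at 6 h and 8.80, 8.62 and 8.59 at 48 h, a 7.58-fold rise, and Bhlhe40, a repressor that hypoxia also raises, rose by 1.60 ± 0.21. Per1 read 7.26, 7.66 and 7.69 at 6 h and 6.86, 7.60 and 7.58 at 48 h, with overlap (-0.19 ± 0.22 SE, adjusted p = 0.764, not called). Of 40 YAP and SRF targets 6 were called higher and 2 lower; the lower count was 0 without vehicle 6 h replicate 2 or vehicle 48 h replicate 1 and 1 without vehicle 6 h replicate 3. Vdr, the vitamin D receptor, read 9.16, 9.68 and 9.53 at 6 h and 9.77, 9.83 and 9.85 at 48 h. Cyp24a1, the hormone-degrading enzyme it induces, read 4.78, 4.41 and 4.40 at 6 h and 4.65, 4.92 and 4.10 at 48 h; neither was called, nor was any of the 14 genes of that list. Vdr was called higher with quantile normalization, and 1 gene of the list, the calcium channel Trpv6, without vehicle 6 h replicate 1.

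Markers of other cell types gave few calls. The 19 immune markers had 1 call, Cd68, which read 5.89, 5.78 and 5.35 at 6 h and 6.70, 6.69 and 6.70 at 48 h and encodes a lysosomal glycoprotein of macrophages that other cells also make (1.02 ± 0.17 SE, adjusted p = 0.00112); without vehicle 6 h replicate 1 there were 2 calls. The 15 endothelial and 18 stromal markers had 0 calls. The 15 neuroendocrine markers had 1, the tubulin Tubb3, lower (-1.57 ± 0.45 SE, adjusted p = 0.0343) and not called without any one of 5 arrays: vehicle 6 h replicate 1 or 3, 1,25D 6 h replicate 1, and vehicle 48 h replicate 1 or 3. Median signals of the 4 marker lists lay between 4.56 and 5.72 in every vehicle array, highest in vehicle 6 h replicate 1, which stood apart, and then in vehicle 48 h replicate 2, except among the neuroendocrine markers.

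The cultures with 1,25D gave a second time course with no array in common, though a shared estimate of the spread served both tests. There 4265 genes (23.4%) were called between 6 and 48 h. Of the 3382 genes called in vehicle, 2714 were called the same way with 1,25D (80.25% of the vehicle calls and 63.63% of the 1,25D calls), 9 the opposite way and 659 not at all. Across the 18193 genes, which are not independent, Pearson's r between the changes was 0.826. Some list medians lay close by: -0.98 with 1,25D against -1.02 in vehicle for ribosome biogenesis, -0.89 against -0.80 for G1/S, and 0.63 against 0.74 for hypoxia. In the G2/M list they were -1.17 and -0.87, and no member's difference was called. Others were further apart. The epidermal-type list had a median of 0.92 and 26 of 37 called higher with 1,25D, against 0.36 and 13 in vehicle. The difference was called for 7 of its members. The heat shock list had medians of -0.49 and -0.24, with 1 difference called. Basal genes had 10 of 24 called higher and 0 lower with 1,25D, against 4 and 4 in vehicle. Luminal genes had 7 of 27 higher and 2 lower with 1,25D, against 13 and 1 in vehicle. The difference was called for 3 members of each of these 2 lists.

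The difference between the time changes (vehicle minus 1,25D) was called for 115 genes (0.632%), 52 (0.286%) with the higher change in vehicle and 63 (0.346%) with the lower, and 78 of them were also called in vehicle. Without vehicle 48 h replicate 2 there were 75 and without 1,25D 6 h replicate 1 there were 66. The 8 largest with the higher change in vehicle were Spink12, Bbox1, Apcdd1, Col11a1, Plb1, Wfdc3, Shpk and Acod1. Spink12, a Kazal-type protease inhibitor, rose by 2.89 in vehicle and had a change of -1.14 with 1,25D, a difference of 4.03 ± 0.35 (SE, adjusted p = 9.96e-05). The call for the difference of Bbox1 was lost without any one of the 6 vehicle arrays, any one 1,25D 6 h array or 1,25D 48 h replicate 2, and also with median centring or with no trend. That of Col11a1 was lost without any one 1,25D 6 h or vehicle 48 h array or vehicle 6 h replicate 1 or 2, and that of Acod1 without 1,25D 6 h replicate 1. Bbox1, the last enzyme of carnitine synthesis, rose by 3.14 in vehicle, Plb1, a phospholipase, by 2.76, Wfdc3, a whey acidic protein, by 1.96, and Acod1, which makes itaconate, by 1.67. Col11a1, a fibrillar collagen chain, rose by 1.54. Apcdd1, a Wnt inhibitor (0.42 ± 0.17), and Shpk, a sedoheptulose kinase (0.31 ± 0.16), were not called in vehicle.

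The 8 largest with the lower change in vehicle were Sprr2f, Stfa2l1, Klk1b1, Mmp13, Egfbp2, Sprr2i, Mmp3 and Teddm3. Sprr2f read 5.22, 4.69 and 3.97 at 6 h and 7.16, 7.16 and 7.74 at 48 h in vehicle, a 6.62-fold rise, while its change with 1,25D was 6.86; the difference was -4.13 ± 0.36 (adjusted p = 0.000104). Mmp13, collagenase 3, rose by 1.58 in vehicle, against a change of 4.96 with 1,25D, and Mmp3 fell by 1.55 in vehicle, against a change of 1.38 with 1,25D. Stfa2l1, a stefin (0.33 ± 0.14), Klk1b1, a kallikrein (0.36 ± 0.25), and Teddm3 (0.66 ± 0.21) were not called in vehicle; Klk1b1 was called higher without vehicle 6 h replicate 1 and Teddm3 without 1,25D 48 h replicate 4. Sprr2i rose by 1.05 ± 0.22, a call lost with an offset of 64, and Egfbp2, another kallikrein, by 0.49 ± 0.14, a call lost when replicate 2 or 3 of vehicle 6 h, replicate 1 or 3 of vehicle 48 h or, with 1,25D, replicate 1 or 3 at 6 h or replicate 3 at 48 h was left out. The Sprr2, stefin and kallikrein families have near-identical members, so these names are uncertain within a family.

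**Figure D5:**
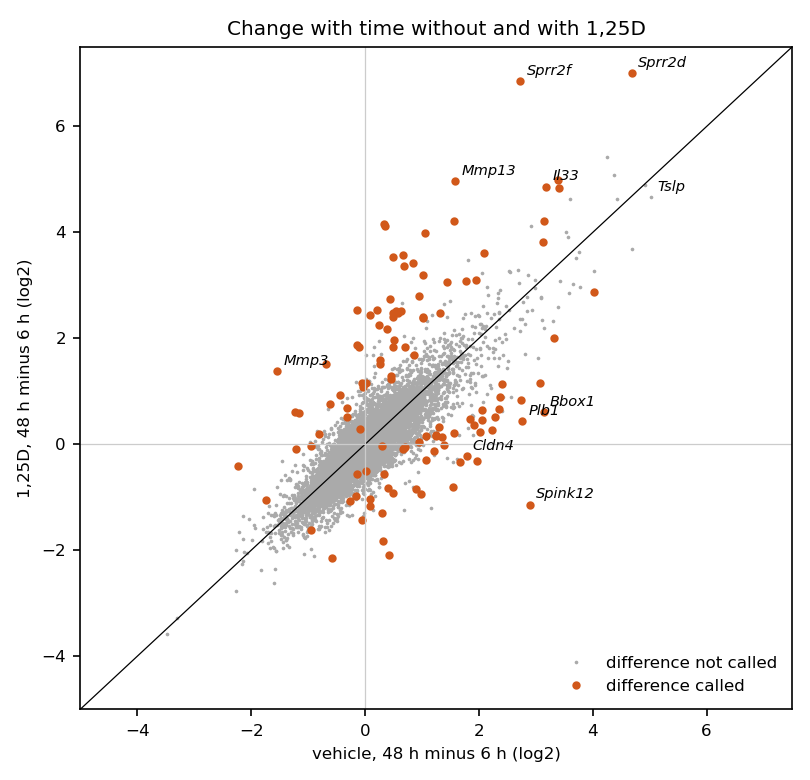
Change from 6 to 48 h in vehicle (x axis) and with 1,25D (y axis), both log2, for each of 18193 genes, with the 115 whose difference was called in orange and the line of equality in black. Most genes lie along the line, and Sprr2f and Mmp13 lie above it and Spink12 below it.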

How the data were processed

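RNA from 13 arrays was measured on an Affymetrix expression array from 5 ug of total RNA, per the labels' protocols. The authors deposited log2 signals for 45101 probe sets; MAS5 is named in the submitters' processing notes, and how it led to these values is not given in the sources used here. Values were used as deposited, without the authors' detection calls. After 64 control probe sets were left out, 45037 were fitted with limma 3.58.1 (R 4.3.3): group means over all 13 arrays, eBayes with trend, and Benjamini-Hochberg adjustment over all probe sets. Of these, 34945 carried 1 gene symbol, 932 several and 9160 none, and 18193 genes were kept. Tables and figures used Python 3.11.15, pandas 2.3.3 and matplotlib 3.10.9. Arrays give no counts; their number limits the precision. The genes and the 37 gene lists were chosen with earlier results of these data known. Named genes were the 15 largest rises and falls with separated arrays (predicted names skipped), up to 6 members of a list by p with others that order its roles, the 8 largest differences from 1,25D in each direction, and a set of standard markers. The method was tested on simulated data. Alternatives were offsets, normalization, variance settings, dim or ambiguous probe sets, a fold threshold, and leaving out arrays. Promoters came from RefSeq for 14452 genes.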

Additional observations from a re-analysis of the deposited data

Results flagged for a closer look

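For 37 of the genes named above, the time change differed between vehicle and 1,25D by the test of the difference itself (limma, adjusted p under 0.05), and the values that follow are vehicle minus 1,25D on the log2 scale. Of the genes reported for this difference, the change was higher in vehicle for Spink12 (4.03), Bbox1 (2.52), Apcdd1 (2.51), Col11a1 (2.35), Plb1 (2.33), Wfdc3 (2.28), Shpk (2.14) and Acod1 (2.01). It was lower in vehicle for Sprr2f (-4.13), Stfa2l1 (-3.83), Klk1b1 (-3.76), Mmp13 (-3.38), Egfbp2 (-3.05), Sprr2i (-2.93), Mmp3 (-2.92) and Teddm3 (-2.91).

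Others had been described above mainly for their vehicle change. Those with a higher change in vehicle were Cldn4 (2.00), Ccng2 (1.91), Nupr1 (1.49), Hp (1.15), Insig2 (0.98), Hsph1 (0.67) and Krt18 (0.34). Those with a lower change in vehicle were Sprr2d (-2.33), Gjb2 (-1.83), Abcc4 (-1.82), Slc7a11 (-1.75), Il33 (-1.68), Sprr1a (-1.61), Krt6b (-1.42), Cd68 (-1.36), Mgp (-1.07), Plk2 (-1.01), S100a8 (-0.83), Myc (-0.82), Ereg (-0.70) and Saa3 (-0.69). For Cd68, the only immune marker called in vehicle, the 1,25D cultures therefore showed the larger rise.

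Among the 1,25D arrays at 48 h, Col11a1 had 1 of 4 arrays far from the other 3 (log2 signal 6.61), a gap that Dixon's test at 95% passes by chance in about 1 group in 20. The difference of Col11a1 lost its call without several single arrays, as stated above, but without none of the 1,25D 48 h arrays.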

How the results depend on the processing

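The vehicle call count of 3382 ranged from 2540 to 3679 without any 1 array (2540 without vehicle 48 h replicate 2, 3679 without 1,25D 48 h replicate 4). Fitted on the 6 vehicle arrays alone it was 2366. Against a fold of at least 1.5 it was 538 (381 higher, 157 lower), the 1,25D time change had 826 calls, and the difference had 32. The 115 calls of the difference became 262 with array quality weights, 183 with the mean of all probe sets of a gene and 199 without the 2 arrays that stand apart, and 66 to 130 without any 1 array; the cause was not tested. Higher and lower calls in vehicle were 1994 and 2156 with array quality weights. Same-numbered vehicle arrays at 6 and 48 h correlated at -0.243, -0.339 and 0.482 in their deviations from the group means. With so few arrays in a group, these values cannot decide whether the numbers pair the arrays. With a replicate block there were 3415 calls in vehicle, 3819 with 1,25D and 103 of the difference. Small changes turned sign. Cyp24a1 (0.03) was -0.01 with array weights, -0.13 with the mean of probe sets and -0.15 to 0.26 without 1 array. Krt14 (-0.01) was 0.01 with quantile normalization and without ambiguous probe sets, and -0.03 to 0.01 without 1 array. Krt8 (-0.02) was 0.02 with the mean of probe sets and -0.07 to 0.02 without 1 array. Without 1 array, Krt5 ranged from -0.20 to 0.08, Pbsn from -0.00 to 0.06 and Per1 from -0.33 to 0.05. The difference of Apcdd1 was not called without ambiguous probe sets, nor that of Plb1 with the mean of probe sets. Of 189 named results called, 126 kept direction and call in every alternative. Of 2023 called genes with another probe set, 907 had another called the same way, and Mtm1, Ncaph2 and Anxa6 had one called the opposite way.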
